A study of Mus musculus with 6 samples.

Results

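The thick ascending limb is the nephron segment that carries salt out of the tubular fluid without letting water follow. Its genes were followed here in the renal cortex of mice. The members were the 8 genes Slc12a1, Umod, Kcnj1, Bsnd, Cldn10, Cldn16, Cldn19 and Ptger3, taken by the gene name that the scanner files give to each non-control feature. They were 8 of the 27454 gene symbols among the features kept and were read by 12 of these 56470 features. A feature here is a 60-base probe with its spots averaged. All 8 genes had at least 1 tested feature, and 9 of the 12 features were tested among 29889 in all.

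One-colour Agilent arrays were hybridised with total RNA of the renal cortex, 1 array for each mouse. The arrays carried 2 labels, db/m and db/db, with 3 male mice of 16 weeks in each group, and the db allele is a mutation of the leptin receptor gene Lepr that leads to obesity and diabetes when both copies carry it. The protocol of all 6 samples states a treatment of 8 weeks with Huangqi decoction (HQD), a herbal extract built on Astragalus root, and the design text and the study's methods describe the arrays as db/db mice with and without HQD. The groups were therefore called labelled db/m and labelled db/db, every difference was labelled db/m minus labelled db/db, and whether it stands for genotype or for HQD cannot be told apart from these sources.

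The mice were of the C57BLKS/J background, and the dose of HQD behind these arrays is not named in the sources used here. The source names of the labels call the labelled db/m samples control and the labelled db/db samples model. The protocol speaks of the glomerular transcriptome while the tissue label is renal cortex. All 8 thick limb genes had a feature well above background on all 6 arrays, and so did all 20 of 20 proximal tubule markers in the tested set. The feature for the long form of Lepr did not clearly exceed background on any array and checks no label. The tested Lepr feature read 1.38, 1.60 and 1.18 in labelled db/m and 0.60, 0.64 and 1.65 in labelled db/db, with a limma adjusted p of 0.447.

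Values were given as log2 intensity relative to the 75th percentile of the same array, so that 0 marks that percentile. From 51.6% to 59.0% of features were well above background on an array, and the 75th percentile of intensity lay between 765 and 1030. Single arrays are written by label and replicate number, as db/m 1 or db/db 3. They lay on 3 slides, slide 1 with db/m 1 beside db/db 3, slide 2 with the other labelled db/m arrays and slide 3 with the other labelled db/db arrays. In RNA from whole cortex, fewer cells of a type and less RNA per cell cannot be told apart.

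Salt enters the thick limb cell from the lumen through NKCC2, the sodium, potassium and chloride cotransporter encoded by Slc12a1 and the target of loop diuretics. ROMK, the channel encoded by Kcnj1, returns potassium to the lumen, and the exit of chloride at the other side needs barttin, the product of Bsnd. The lumen becomes positive, which drives cations between the cells through pores of the claudins. Uromodulin, the product of Umod, is the most abundant protein of normal urine and is made by these cells, and the prostaglandin receptor EP3, encoded by Ptger3, restrains salt uptake there.

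The sequences of 4 features are shown because the claudins of the paracellular path gave differences of both signs, and because a pair of Ptger3 features could be set against each other. They were copied from the scanner files, 5′ to 3′ and in lower case with no base marked, and their positions are those of the mm9 build. Each read without a stop codon in at least 1 of its 3 forward frames. The Cldn10 feature, at chr14:119273459-119273518, is listed for 4 RefSeq transcripts and so cannot tell the variants of the gene apart. The Cldn16 feature lies at chr16:26474305-26474364, the Cldn19 feature at chr4:118929768-118929827 and the second Ptger3 feature at chr3:157268044-157268103.
Cldn10: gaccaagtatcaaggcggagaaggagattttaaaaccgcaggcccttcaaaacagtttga
Cldn16: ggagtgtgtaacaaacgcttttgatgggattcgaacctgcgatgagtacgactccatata
Cldn19: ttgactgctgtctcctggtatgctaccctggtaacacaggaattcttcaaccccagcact
Ptger3, second feature: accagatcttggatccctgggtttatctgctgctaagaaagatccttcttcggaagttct

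None of the 8 thick ascending limb genes differed between the groups beyond the spread of the arrays. Of the 9 tested features, 0 had an unadjusted limma p under 0.05, where 10.8% of all tested features were lower and 6.9% were higher in labelled db/m at that threshold. In 0 of the 9 did the groups stand clear of each other, where 16.4% of all tested features lay wholly lower and 7.75% wholly higher in labelled db/m. After Benjamini-Hochberg adjustment limma called 0 of the 29889 features (0%), against 5282 at an unadjusted p under 0.05. A plain equal-variance t-test, which for a pair of groups equals one-way ANOVA, gave 4617 unadjusted and 0 adjusted. The study's methods name ANOVA but no test for the arrays. In a comparison of 3 against 3 arrays the exact permutation test cannot go below a two-sided p of 0.1.

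The signs were uneven all the same. The mean was higher in labelled db/m for 6 of the 8 genes, namely Bsnd, Cldn19, Ptger3, Cldn10, Slc12a1 and Kcnj1, while Cldn16 and Umod were lower. With quantile normalization or the deposited matrix Umod turned positive as well. The median difference of the 8 genes was 0.35 log2 units, beside -0.03 over all tested features. No member reached the fold of 2 between group means that the study text uses as its screen. The 95% confidence intervals stayed inside that fold for Umod, Kcnj1 and Cldn16, and reached past it for the other 5 genes.

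**Figure D1:**
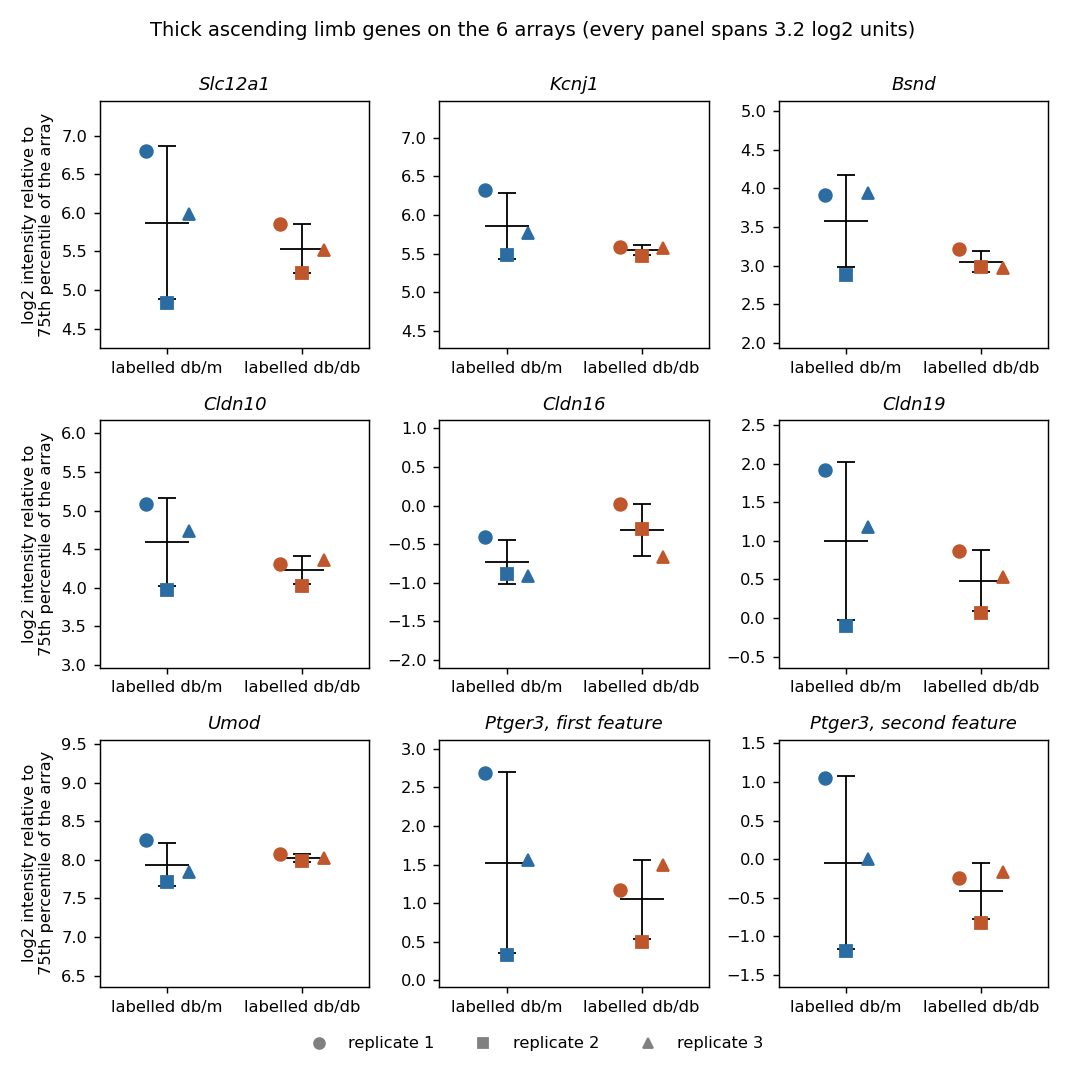
Log2 intensity relative to the 75th percentile of the array (y axis) for the 9 tested features, with 1 symbol for each of the 3 replicates of a group and the group mean with its SD as bars. Every panel spans the same number of log2 units. The circle of db/m 1 is the highest point in 7 panels and the square of db/m 2 the lowest in 7, and in no panel do the groups stand apart.

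Slc12a1, the entry step for salt, read 6.80, 4.83 and 5.99 on the labelled db/m arrays and 5.86, 5.22 and 5.52 on the labelled db/db arrays. The labelled db/m arrays held both the highest and the lowest value, and all labelled db/db arrays lay between them. The difference was 0.34 ± 0.47 (SE, as for every difference below) log2 units, with a 95% interval from -0.79 to 1.47 and an unadjusted limma p of 0.498. As a fold this was 1.26, with an interval from 0.579 to 2.76. The feature lies at chr2:125055224-125055283.

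A further Slc12a1 feature, at chr2:125021044-125021103, was designed on an alternatively spliced transcript and was well above background on 2 of the 3 arrays of each group, too few for the test. It read -2.43, -4.66 and -3.53 in labelled db/m and -3.69, -3.81 and -0.82 in labelled db/db. Its 2 highest values came from db/db 3 and db/m 1, which share slide 1. The range over the 6 arrays was 3.85 log2 units, wider than that of 99.8% of all tested features.

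Kcnj1, the potassium channel that keeps the cotransporter supplied, read 6.32, 5.48 and 5.77 in labelled db/m and 5.59, 5.48 and 5.58 in labelled db/db. Only db/m 1 and db/m 3 stood above the other arrays, while the labelled db/db arrays lay close together with an SD of 0.06. The difference was 0.31 ± 0.21 log2 units with an unadjusted limma p of 0.192. The feature lies at chr9:32206612-32206671.

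Bsnd, whose product the exit of chloride needs, had the largest difference of the 8 genes. It read 3.91, 2.88 and 3.94 in labelled db/m and 3.21, 2.98 and 2.96 in labelled db/db. A pair of labelled db/m arrays stood above all labelled db/db arrays and the remaining one, db/m 2, below them. The difference was 0.52 ± 0.29 log2 units, a fold of 1.44 with an interval from 0.892 to 2.32 and an unadjusted limma p of 0.115. The feature lies at chr4:106156065-106156124, and Bsnd and Cldn19 lie on chromosome 4 at 4.70 and 17.5 Mb from the Lepr features.

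The 3 claudins of the thick limb did not share a sign. Claudin 10 forms the cation path that lets sodium through, whereas claudins 16 and 19 together serve the reabsorption of calcium and magnesium and are mutated in familial magnesium loss. Cldn10 read 5.08, 3.97 and 4.73 in labelled db/m and 4.31, 4.03 and 4.36 in labelled db/db. Arrays db/m 1 and db/m 3 were the highest and db/m 2 the lowest, and the difference was 0.36 ± 0.28 log2 units with an unadjusted limma p of 0.24.

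Cldn19 read 1.92, -0.10 and 1.18 in labelled db/m and 0.86, 0.07 and 0.53 in labelled db/db. Again the labelled db/m arrays took both ends of the order. The difference was 0.51 ± 0.50 log2 units with an unadjusted limma p of 0.338, and the values spanned a 4.06-fold range over the 6 arrays.

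Cldn16, the partner of Cldn19, had the opposite sign and the smallest p of the 9 features. It read -0.40, -0.88 and -0.91 in labelled db/m and 0.01, -0.30 and -0.66 in labelled db/db. A pair of labelled db/db arrays stood above all labelled db/m arrays, and db/db 3 lay below db/m 1. The difference was -0.42 ± 0.22 log2 units, a fold of 0.749 with an interval from 0.522 to 1.07, an unadjusted limma p of 0.0992 and an adjusted p of 0.341. Within slide 1, where db/m 1 is set against db/db 3, the sign was positive, at 0.26.

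Umod, which encodes the main protein the segment secretes, read 8.25, 7.71 and 7.85 in labelled db/m and 8.08, 7.98 and 8.02 in labelled db/db. The labelled db/db arrays differed among themselves by an SD of 0.05, and the labelled db/m arrays lay on either side of them. The difference was -0.09 ± 0.16 log2 units with an interval from -0.47 to 0.29, which as a fold runs from 0.724 to 1.22. The unadjusted limma p was 0.588. The feature lies at chr7:126606529-126606588, and no feature was saturated on any array.

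Ptger3 was read by 4 features, of which the first, at chr3:157307508-157307567, and the second, whose sequence is given above, were tested. The first read 2.68, 0.33 and 1.57 in labelled db/m and 1.17, 0.49 and 1.49 in labelled db/db, a difference of 0.47 ± 0.58 log2 units with an unadjusted limma p of 0.439. The second read 1.05, -1.19 and 0.00 in labelled db/m and -0.25, -0.83 and -0.16 in labelled db/db, a difference of 0.37 ± 0.53 with an unadjusted limma p of 0.51. Both features put the 6 arrays in the same order, and after centring they differed by a root mean square of 0.12 log2 units. Of the untested features, the one at chr3:157270101-157270160 did not clearly exceed background on any array and the one at chr3:157308072-157308131 did so only on db/db 3.

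**Figure D2:**
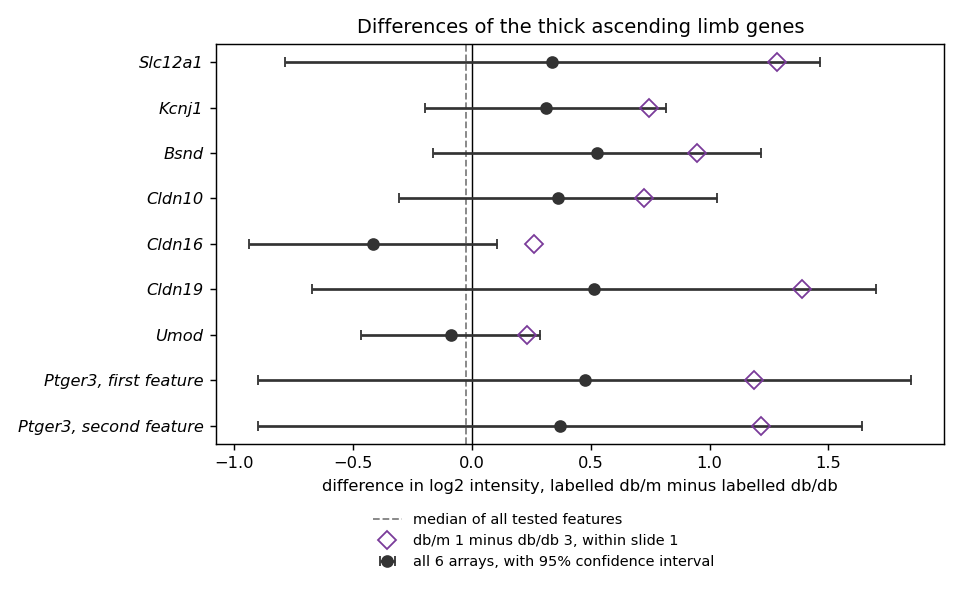
Differences in log2 intensity (x axis), labelled db/m minus labelled db/db, for the 9 tested features: filled points with 95% confidence intervals over all 6 arrays, open diamonds for db/m 1 minus db/db 3 on slide 1, and a dashed line at the median of all tested features, -0.03. All intervals cross 0, while all diamonds lie above it.

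The spread of the members over the arrays was wider than that of most features and lay mainly within labelled db/m. The median range of the 9 tested features was 1.11 log2 units, beside 0.58 over all tested features, and the median SD was 0.60 in labelled db/m and 0.32 in labelled db/db, beside 0.16 in each group over all tested features. In 8 of the 9 features the SD was larger in labelled db/m, as in 49.6% of all tested features, and Cldn16 was the exception. The widest was the first Ptger3 feature, with a 5.09-fold range, and the narrowest Umod, with a 1.46-fold range.

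This spread followed 1 order of arrays. Labelled db/m replicate 1 was the highest of the 6 in 7 of the 9 features, as in 17.7% of all tested features, and Bsnd and Cldn16 were the exceptions. Labelled db/m replicate 2 was the lowest in 7 of the 9, as in 13.4% of all tested features, with Kcnj1 and Cldn16 as exceptions. Both held for 6 of the 9 features and for 5.33% of all tested features. The members shared the RNA of each mouse and its labelling, so these counts are not independent.

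Slc12a1 and Cldn19 ran closest together of all pairs of members, with a root mean square difference of 0.11 log2 units over the 6 arrays after centring each gene on its mean. Cldn16 and Ptger3 were farthest apart, at 0.82. Among all 16459 genes tested, those whose pattern came nearest to Slc12a1 were Pak6 at 0.08, Rhof at 0.09 and Ptgds, a prostaglandin D synthase, at 0.10. Nearest to the flatter pattern of Umod were Pmvk, 2310058D17Rik and Ocln, the tight junction protein occludin, at 0.03, 0.03 and 0.04. With 6 arrays and so many genes, near matches of this kind are a description only.

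**Figure D3:**
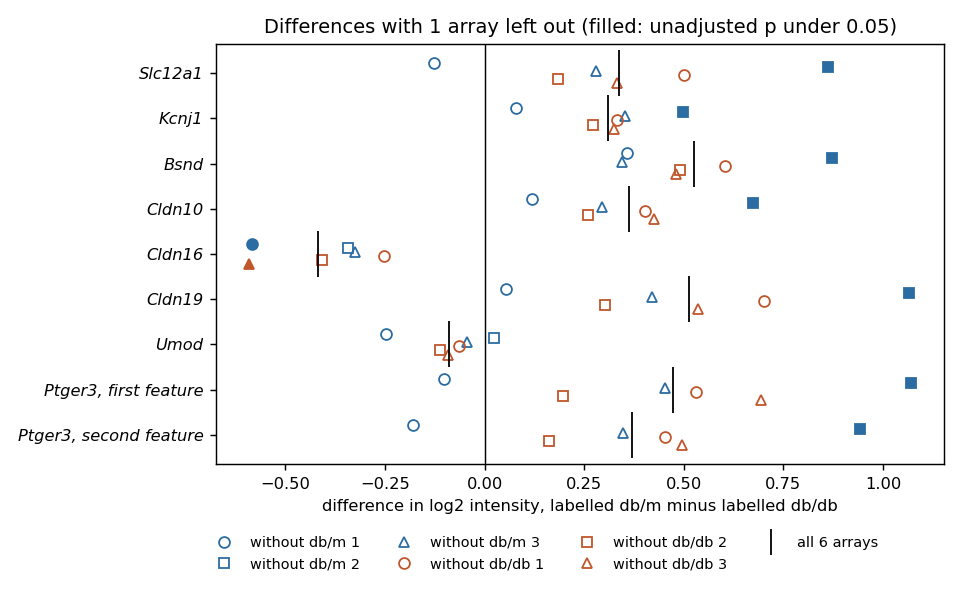
Differences in log2 intensity (x axis), labelled db/m minus labelled db/db, recomputed with each of the 6 arrays left out in turn, with filled symbols where the unadjusted limma p was under 0.05 and a vertical bar for all 6 arrays. Without db/m 2 the symbols of 7 features are filled on the positive side, and without db/m 1 only Cldn16 is filled, on the negative side.

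The calls changed when any of 3 arrays, db/m 1, db/m 2 or db/db 3, was left out. Without db/m 2, 7 of the 9 features were higher in labelled db/m at an unadjusted limma p under 0.05, where 9.51% of all tested features were. Bsnd was then higher by 0.87 log2 units, with an unadjusted limma p of 0.00059. Cldn10 was higher by 0.67, Cldn19 by 1.06, Slc12a1 by 0.86, Kcnj1 by 0.50 and the Ptger3 features by 1.07 and 0.94, while Umod stood at 0.02 and Cldn16 at -0.34. None of these passed the adjustment over all features, the smallest adjusted p being 0.0675 for Bsnd.

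Without db/m 1 the signs shifted the other way. The difference was -0.13 for Slc12a1 and -0.10 and -0.18 for the Ptger3 features, and the median of the 8 genes was -0.02. Cldn16 stood at -0.58 with an unadjusted limma p of 0.0343, where 7.74% of all tested features were lower at p under 0.05. Leaving out db/m 3, db/db 1 or db/db 2 brought 0 features past that threshold. Leaving out db/db 3 brought Cldn16 past it, where 13% of all tested features were lower. Within slide 1 all 8 genes were higher on db/m 1 than on db/db 3, with a median of 0.85 and no test. With slide as a fixed block, a fit in which only that pair of arrays compares the groups, Kcnj1 had an unadjusted limma p of 0.0212. Its limma adjusted p there was 0.497, and 4.55% of all tested features were higher at an unadjusted p under 0.05. Values of 10000 or more on db/m 1 were mostly rounded to multiples of 100 in the deposited file (3954 of 4151). Its lower member intensities were also rounded, with Cldn19 at 3890, the tested Ptger3 features at 6600 and 2140 and Cldn16 at 780. The rounding thus touches its readings of all 8 genes.

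Some marker lists of other nephron segments also differed between db/m 1 and db/m 2. The thin limb and inner medulla list, whose Slc14a2 and Akr1b3 encode a urea transporter and the sorbitol-making aldose reductase of the hypertonic medulla, was higher in labelled db/m in 10 of 10 genes, with a median of 0.97 log2 units. Of the 10, 2 were higher at an unadjusted limma p under 0.05, as were 6.9% of all tested features, and Slc14a2, 1 of the 2, differed by 1.59 ± 0.52. The summed level of the list, in multiples of the 75th percentile, ran from 17.8 to 87.5 in labelled db/m and from 20.0 to 23.2 in labelled db/db. All 10 markers were well above background on all 6 arrays except Krt19, on 5. The summed level of the 8 thick limb genes ran from 308 to 556 in labelled db/m and from 362 to 411 in labelled db/db. Such linear sums weigh the brightest gene most, which was Akr1b3 in the former list and Umod among the thick limb genes.

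Both lists had their highest sum on db/m 1 and their lowest on db/m 2, although by mean centred value the thin limb and inner medulla list was lowest on db/db 2, at -0.98, with db/m 2 at -0.86. Akr1b3, singled out after its values were seen and with overlapping groups, read 5.71, 2.84 and 5.35 in labelled db/m and 3.16, 3.18 and 2.91 in labelled db/db, so that db/m 2 lay with the labelled db/db arrays while the other labelled db/m arrays stood far above. The mean centred value of the proximal tubule list was lowest on db/m 1 and highest on db/db 2, at -0.38, 0.13 and -0.21 in labelled db/m and 0.10, 0.25 and 0.11 in labelled db/db. The distal convoluted tubule list stood at -0.50, 0.36 and -0.15 and at -0.13, 0.33 and 0.09. The principal cell list, high on db/m 1 and db/m 3, stood at 0.51, -0.29 and 0.45 and at -0.16, -0.22 and -0.29. The part of these markers in the values of the thick limb genes was not tested.

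**Figure D4:**
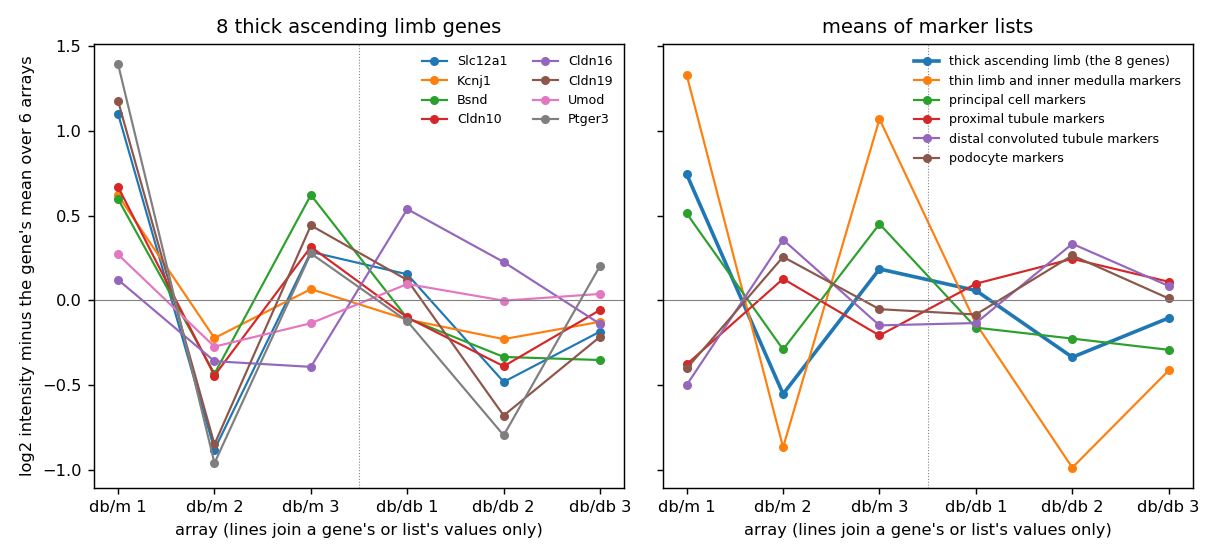
Log2 intensity minus the mean over 6 arrays (y axis) on each array (x axis), for the 8 thick ascending limb genes on the left and for the means of marker lists on the right. The thick limb genes other than Cldn16, the thin limb and inner medulla list and the principal cell list are high on db/m 1 and low on db/m 2. The proximal tubule, distal convoluted tubule and podocyte lists are low on db/m 1.

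The wider machinery of the segment was described with 6 lists of 108 genes, 99 of them tested, none a member. Of these 99 genes 13 were lower and 5 higher in labelled db/m at an unadjusted limma p under 0.05, or 0 after adjustment, where the shares over all tested features were 10.8% and 6.9%. Their median difference was 0.02 log2 units. With 1 array left out, the lower genes numbered from 0, without db/db 2, to 15, and the higher genes from 2 to 29, the last without db/m 2. Without db/m 2, 13.7% of all tested features were lower and 9.51% higher, and without db/db 2, 5.14% and 3.63%. The genes named below all lay clear of overlap between the groups unless stated, and their adjusted p values ran from 0.24 to 0.271.

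Among 16 genes of salt reabsorption, 4 were lower and 0 higher. Among the lower ones were Slc12a7, a potassium and chloride cotransporter, at -0.46 ± 0.16, Slc9a2, a sodium and proton exchanger, at -0.40 ± 0.15 and Slc4a2, an anion exchanger, at -0.28 ± 0.10 log2 units. Slc12a7 had a further feature, at -0.32.

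Among 15 tested genes of claudins and tight junctions, 3 were lower and 1 higher. Cldn2, the cation pore of the proximal tubule, stood at -0.55 ± 0.17, the adhesion molecule F11r at -0.33 ± 0.13 and Marveld3 at -0.28 ± 0.11, for which further features gave 0.00 and -0.43. Cldn4, a claudin of the collecting duct, was at 0.88 ± 0.29 log2 units. Its feature was dim, with a mean of -2.64 in labelled db/m and -3.51 in labelled db/db.

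Among 20 tested kinases and adaptors that act on the cotransporter, 2 were lower and 2 higher. Wnk1, which starts the kinase cascade that phosphorylates NKCC2, was at -0.44 ± 0.14 and Cul3, the scaffold of the ligase that degrades such kinases, at -0.39 ± 0.13 log2 units. The other 3 features of Wnk1 lay between -0.23 and -0.03. Cab39l, an adaptor that activates the downstream kinases, stood at 0.52 ± 0.13, with further features at 0.22 and 0.73, and Sorl1, a sorting receptor that promotes NKCC2 activation, at 0.52 ± 0.19 log2 units, with overlapping groups and named after its values were seen.

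Among 16 tested hormone and mediator receptors, 0 were lower and 1 higher, the adenosine receptor Adora2a at 0.91 ± 0.26. The Adora2a feature was dim, with a mean of -1.97 in labelled db/m and -2.87 in labelled db/db. Of the 19 tested genes of uromodulin handling and thick limb transcription, 2 were lower, among them Hpn at -0.30 ± 0.12, and 0 were higher. Hpn encodes hepsin, the protease that releases uromodulin into the lumen, and it read 5.78, 6.04 and 5.78 in labelled db/m and 6.19, 6.24 and 6.08 in labelled db/db. Among 13 tested genes of the macula densa and prostaglandin synthesis, Tbxas1 at -0.50 ± 0.16 and Ptges2 at -0.40 ± 0.13 were lower. Mcub at 0.37 ± 0.13 was higher, with dim means of -2.17 in labelled db/m and -2.55 in labelled db/db. Ptges2 is a prostaglandin E synthase and so stands upstream of the ligand of EP3.

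By their medians, the pathway genes varied less over the arrays than the members. The median range over the 6 arrays was 0.64 log2 units for the 99 list genes and 1.08 for the 8 members, and the median within slide 1 was 0.13 for the former and 0.85 for the latter. The members and the lists were both chosen with results of these arrays known, so no test was placed on this difference. For scale, the neighbouring segment's cotransporter Slc12a3 of the distal convoluted tubule read 2.40, 2.67 and 2.16 in labelled db/m and 3.25, 3.42 and 3.29 in labelled db/db, a difference of -0.91 ± 0.15 with a limma adjusted p of 0.24.

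**Figure D5:**
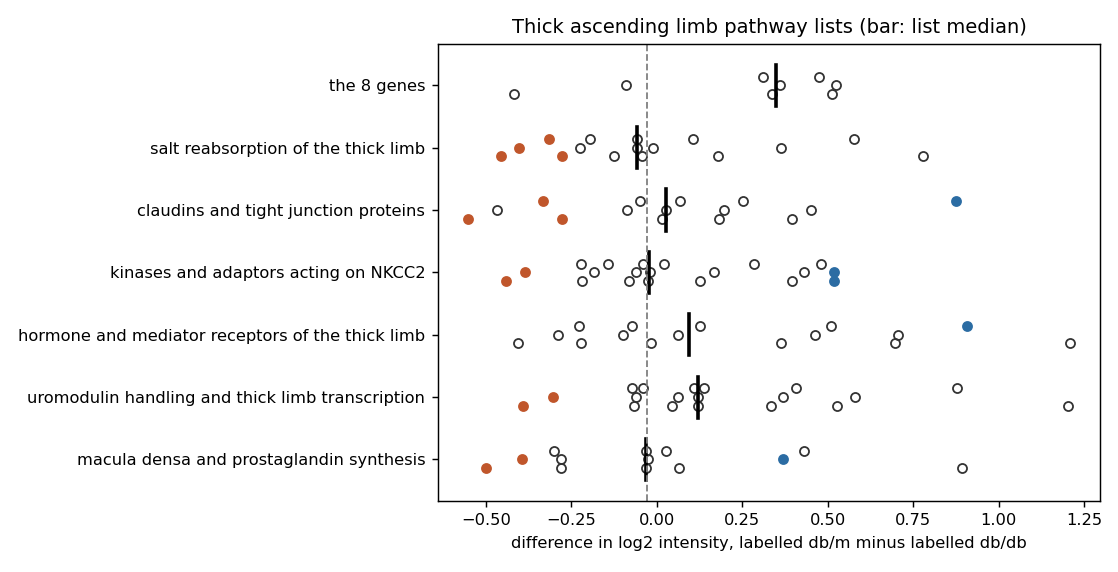
Differences in log2 intensity (x axis), labelled db/m minus labelled db/db, for each tested gene of the 8 members and of the 6 pathway lists, filled where the unadjusted limma p was under 0.05, with a bar at each list's median and a dashed line at the median of all tested features. The 8 genes have their median at 0.35 with no filled point, and the medians of the 6 lists lie between -0.06 and 0.12.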

How the data were processed

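The authors deposited 1 Agilent Feature Extraction 10.7.1.1 scanner file per array (the version per the submitters' processing notes), whose processed intensity was background-subtracted but not normalized between arrays. They also deposited a matrix of log2 values whose columns share the same sorted values, as quantile normalization leaves them. In R 4.3.3, control spots and outlier-flagged spots were left out, spots of a probe were averaged, and each array's 75th percentile was subtracted from log2 intensity. A feature entered the fit where either group had it well above background on each of its 3 arrays. The test was limma 3.58.1 (lmFit, eBayes, two-sided) with Benjamini-Hochberg adjustment over 29889 features, and the fit was tested on simulated data. Depth does not apply to arrays, whose number, 3 per group, limits the precision. P-values measure the spread between single mice, which share slides with others.

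The gene's brightest tested feature stood for it. Named were all features of the members, at most 4 genes of each list with an unadjusted p under 0.05 and no overlap of groups, Lepr, and the 3 genes nearest in pattern to Slc12a1 and to Umod. Some genes that this rule names are not reported here. Members and lists were chosen with earlier results of these data known. Symbols came from RefSeq by accession for 32903 features and otherwise from the files. One file held 71 gene names that differ from the others, which were used instead. Coordinates are the files' own (mm9), and exon positions were not used here. Alternatives were other scalings, background correction, filters, variance models, slide or replicate number as a block, and leaving out each array.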

Additional observations from a re-analysis of the deposited data

How the results depend on the processing

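Of the 9 tested thick limb features, 0 had an unadjusted limma p under 0.05 in the main setting. This also held for both directions with quantile normalization, normexp background correction, the deposited matrix and either filter on dim features. It held as well with the plain t-test, the trended variance and slide as a random block. Median centring moved the median of all features from -0.03 to -0.21, and 1 feature was then lower (Cldn16 at -0.60, with an unadjusted limma p of 0.0249). In that setting 19.3% of all tested features were lower at the same threshold. Slide as a fixed block gave 1 higher, a member median of 0.85, and 3 lower and 10 higher genes in the 6 lists. There 5.16% of all tested features were lower and 4.55% higher. With this block Cldn16 turned to 0.26 and Umod to 0.23. Umod also turned with quantile normalization (0.0746) and with the deposited matrix (0.0664). The lower list genes, 13 in the main setting, were 8 with quantile normalization, 8 with the deposited matrix (8 higher there, against 5) and 7 with no filter. The shares of all tested features that were lower were 10.5%, 10.5% and 4.27% in these settings, and 5.16% were higher with the deposited matrix. The cause was not tested.

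With 1 array left out, the features lower were 0 to 1 and those higher 0 to 7, the lower list genes 0 to 15 and the higher list genes 2 to 29, and the member median ran from -0.02 to 0.77. Over all tested features the share lower ran from 4.06% to 13.7% and the share higher from 3.63% to 11.2%. The lowest value came without db/m 1 and the highest without db/m 2 for Slc12a1 (-0.13 to 0.86) and Umod (-0.248 to 0.0235). The same held for Ptger3 (-0.10 to 1.07 and -0.18 to 0.94) and Cldn10 (0.12 to 0.67). It also held for Cldn19 (0.05 to 1.06) and Kcnj1 (0.08 to 0.50), but not for Bsnd or Cldn16. The counts by array were 4 lower and 5 higher list genes without db/m 1, 15 and 29 when db/m 2 was left out, 1 and 3 for db/m 3, 8 and 4 for db/db 1, 0 and 2 for db/db 2 and 13 and 6 for db/db 3. Over all features the adjusted calls were 59 in the absence of db/m 2 and 123 in that of db/db 3, against 0 or 1 in each other setting, with 0 thick limb features among them.

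Whether the replicate numbers pair the samples cannot be settled with 3 arrays per group. The correlations of same-numbered deviations were 0.35, 0.15 and 0.05. Array db/db 3 correlated better with db/m 2 (0.15) than with db/m 3 (0.05), and db/m 2 was at 0.15 with both db/db 2 and db/db 3. With the replicate number as a block 1 feature was lower (Cldn16 at -0.42, with an unadjusted limma p of 0.0171), with 17 lower and 7 higher list genes. In that fit 13.6% of all tested features were lower and 8.35% higher. Dim features are limited by background, so the isoform feature of Slc12a1 and 2 Ptger3 features gave no test.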

Other observations

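Beside the thick limb genes, markers of other cells of the cortex were counted at an unadjusted limma p under 0.05, where 10.8% of all tested features were lower and 6.9% higher in labelled db/m. In the proximal tubule list 4 of 20 genes were lower and 0 higher, with a median of -0.31 log2 units, and the amino acid transporter Slc6a19 stood at -1.01 ± 0.20. The distal convoluted tubule list had 1 lower and 0 higher of 10 (median -0.16), the intercalated cell list 2 lower and 0 higher of 10 (median -0.28, with the anion exchanger pendrin, Slc26a4, at -0.53 ± 0.16) and the principal cell list 1 lower and 3 higher of 10 (median 0.37, with the transcription factor Gata3 at 0.39 ± 0.16). The podocyte, endothelial and tubular injury lists had 0 genes past the threshold in either direction, with medians of -0.15, 0.11 and 0.15. The immune cell list had 1 lower and 4 higher of 10 (median 0.30), with the integrin gene Itgam at 0.70 ± 0.17 and the invariant chain gene Cd74 at -0.45 ± 0.14. A further, dimmer Itgam feature stood at 0.17 ± 0.53.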
